A study of Drosophila melanogaster with 2 samples.

Results

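The small heat shock genes at cytological position 67B are 7 neighbouring genes on chromosome arm 3L of *Drosophila melanogaster*, namely Hsp22, Hsp23, Hsp26, Hsp27, Hsp67Ba, Hsp67Bb and Hsp67Bc. They were chosen by name and position, out of 13945 protein-coding genes annotated on arms 2L, 2R, 3L, 3R, 4 and X, and were read here for where the protein CG12768 sits. Every peak summit across the cluster and 5 kb to each side was taken from the lists of peaks that the authors deposited for the dm6 genome. CG12768 is a protein with a MADF domain, a DNA-binding domain of the Myb type. Chromatin immunoprecipitation with sequencing was carried out on whole adult male flies of unstated age from a transgenic line in which GFP is fused to the C terminus of CG12768, with an antibody against GFP and DNA sonicated to 200-800 bp. The flies formed 1 group with 2 biological replicates, and nothing was compared with another condition. The promoter that drives the fusion, whether the line also keeps untagged CG12768, and the temperature at which the flies were kept are not stated in the labels.

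Small heat shock proteins are chaperones that hold unfolding proteins without using ATP, and most share an alpha-crystallin domain. Their genes are switched on by heat through heat shock factor, which binds arrays of inverted GAA units called heat shock elements, and GAGA factor keeps the promoters of several of them open before any stress. Hsp23 and Hsp27 are also known to respond to the steroid hormone ecdysone. Hsp22 is a mitochondrial chaperone, Hsp27 is largely nuclear, Hsp23 and Hsp26 are cytosolic, and Hsp67Bc works with the co-chaperone Starvin in clearing misfolded proteins. Hsp67Bb lies in the same cluster and takes its name from it, but encodes a rhodanese-domain protein.

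The 7 genes span chr3L:9371511-9385694 on dm6, 14184 bp, and the window with 5 kb to each side is chr3L:9366511-9390694. From low to high coordinate, Hsp67Bc (9371511-9372497) is on the minus strand, Hsp67Bb (9372722-9374964) and Hsp22 (9372931-9374964) overlap on the plus strand, Hsp26 (9376418-9377427) and Hsp67Ba (9377802-9379534) are on the minus strand, and Hsp23 (9381882-9382765) and Hsp27 (9384063-9385694) are on the plus strand. The annotation, Ensembl release 115, lists Hsp67Bb as CG4456. The 7 genes have 9 distinct transcript starts, of which 1, at 9372931, is shared by Hsp67Bb and Hsp22. Hsp22 has a second start of its own at 9373997, inside the annotated span of Hsp67Bb, and Hsp26 has an outer start at 9377427 and an inner one at 9377375. CG4461, another alpha-crystallin gene, and the antisense RNA asRNA:CR43481 also lie within the cluster.

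The DNA just before the starts is shown for the strongest peak, the next one, the divergent pair and the 2 genes without a thresholded peak, so that the motifs described later can be seen in place. The reference is the RefSeq Release 6 genome, which is dm6, and each stretch is given on the strand of its gene. Capitals mark the core of a heat shock element (GAANNTTC), GAGA elements (GAGAG) and TATA boxes (TATAAA), on either strand. The other inverted order of GAA units, TTCNNGAA, was not searched on its own and is not marked. The printed Hsp26 and Hsp23 stretches hold this order, as ttctcgaa and ttcgagaa. The Hsp27 stretch is chr3L:9383823-9384062 on the plus strand, Hsp26 is chr3L:9377428-9377667 on the minus strand, Hsp23 is chr3L:9381642-9381881 on the plus strand and Hsp67Ba is chr3L:9379535-9379774 on the minus strand. The gap between Hsp67Bc and Hsp67Bb is chr3L:9372498-9372721, printed on the plus strand, so that Hsp67Bc starts to its left and Hsp67Bb to its right.
Hsp27: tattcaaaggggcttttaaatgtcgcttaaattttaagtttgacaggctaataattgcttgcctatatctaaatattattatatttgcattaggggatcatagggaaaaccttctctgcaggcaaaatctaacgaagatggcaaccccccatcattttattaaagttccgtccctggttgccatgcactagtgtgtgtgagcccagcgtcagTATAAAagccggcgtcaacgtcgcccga
Hsp26: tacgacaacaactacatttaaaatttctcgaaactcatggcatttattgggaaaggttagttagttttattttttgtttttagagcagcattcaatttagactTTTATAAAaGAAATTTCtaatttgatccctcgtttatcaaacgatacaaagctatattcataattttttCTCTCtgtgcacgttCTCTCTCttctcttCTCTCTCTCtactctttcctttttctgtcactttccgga
Hsp67Bc-Hsp67Bb: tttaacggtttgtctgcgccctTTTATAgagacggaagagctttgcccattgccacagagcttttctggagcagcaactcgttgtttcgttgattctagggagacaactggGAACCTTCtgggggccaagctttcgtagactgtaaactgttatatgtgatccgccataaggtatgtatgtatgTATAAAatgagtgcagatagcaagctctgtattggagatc
Hsp23: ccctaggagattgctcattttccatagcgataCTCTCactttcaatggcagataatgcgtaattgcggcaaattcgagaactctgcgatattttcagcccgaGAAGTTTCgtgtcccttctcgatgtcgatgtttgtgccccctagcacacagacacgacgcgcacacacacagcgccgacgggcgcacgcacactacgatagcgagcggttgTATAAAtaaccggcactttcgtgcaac
Hsp67Ba: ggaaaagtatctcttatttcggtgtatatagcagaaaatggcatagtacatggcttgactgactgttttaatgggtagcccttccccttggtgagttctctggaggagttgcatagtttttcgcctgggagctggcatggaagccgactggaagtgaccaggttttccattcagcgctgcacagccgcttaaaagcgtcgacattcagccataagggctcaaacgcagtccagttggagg

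The thresholded list, made from both replicates and labelled by the authors as the optimal list after a reproducibility filter, holds 6066 peaks. The label does not say which comparison the filter used, so a thresholded peak need not be listed in both replicates. The pooled list and the list of each replicate hold 30000 each, and the pooled list is labelled as peaks and background. The authors' peak caller gave every peak a signal value, used here only to describe and rank peaks within 1 list, where rank 1 is the strongest. Signals in the thresholded list run between 141 and 4110 with a median of 223. A gene was counted as carrying a summit when the summit, the base of highest signal in a peak, lay 500 bp or less from any start of the gene, and a negative distance means upstream. Read counts are not among these values, which leaves the depth unknown for both libraries, and with 1 group no test between groups exists.

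CG12768-GFP lay at 5 of the 7 genes by the thresholded list, namely Hsp67Bc, Hsp67Bb, Hsp22, Hsp26 and Hsp27, against 25.9% of all protein-coding genes (3613 of 13945). Those 5 genes were reached by 4 distinct summits, so they are not 5 separate observations. The signals were far apart: 1506 at Hsp27, 349 at Hsp26, 226 at Hsp22 and 185 at the summit that Hsp67Bc and Hsp67Bb share. Hsp23 and Hsp67Ba carried none, and the thresholded summits nearest to their starts lay 2041 bp downstream of the Hsp23 start, at Hsp27, and 1944 bp downstream of the Hsp67Ba start, at Hsp26. The count was 4 of 7 at a distance of 250 bp, which 21.6% of all genes met, and 5 at 1000 bp, which 29.7% met. With every summit assigned to 1 start only, the closest, it was 4 beside 20.5%. The 6066 strongest peaks of replicate 2 alone gave 4 beside 27.9%, and those of replicate 1 alone gave 5 beside 22.9%. Among the genes that were counted, the summit farthest from a start was that of Hsp22, at -419 bp.

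**Figure D1:**
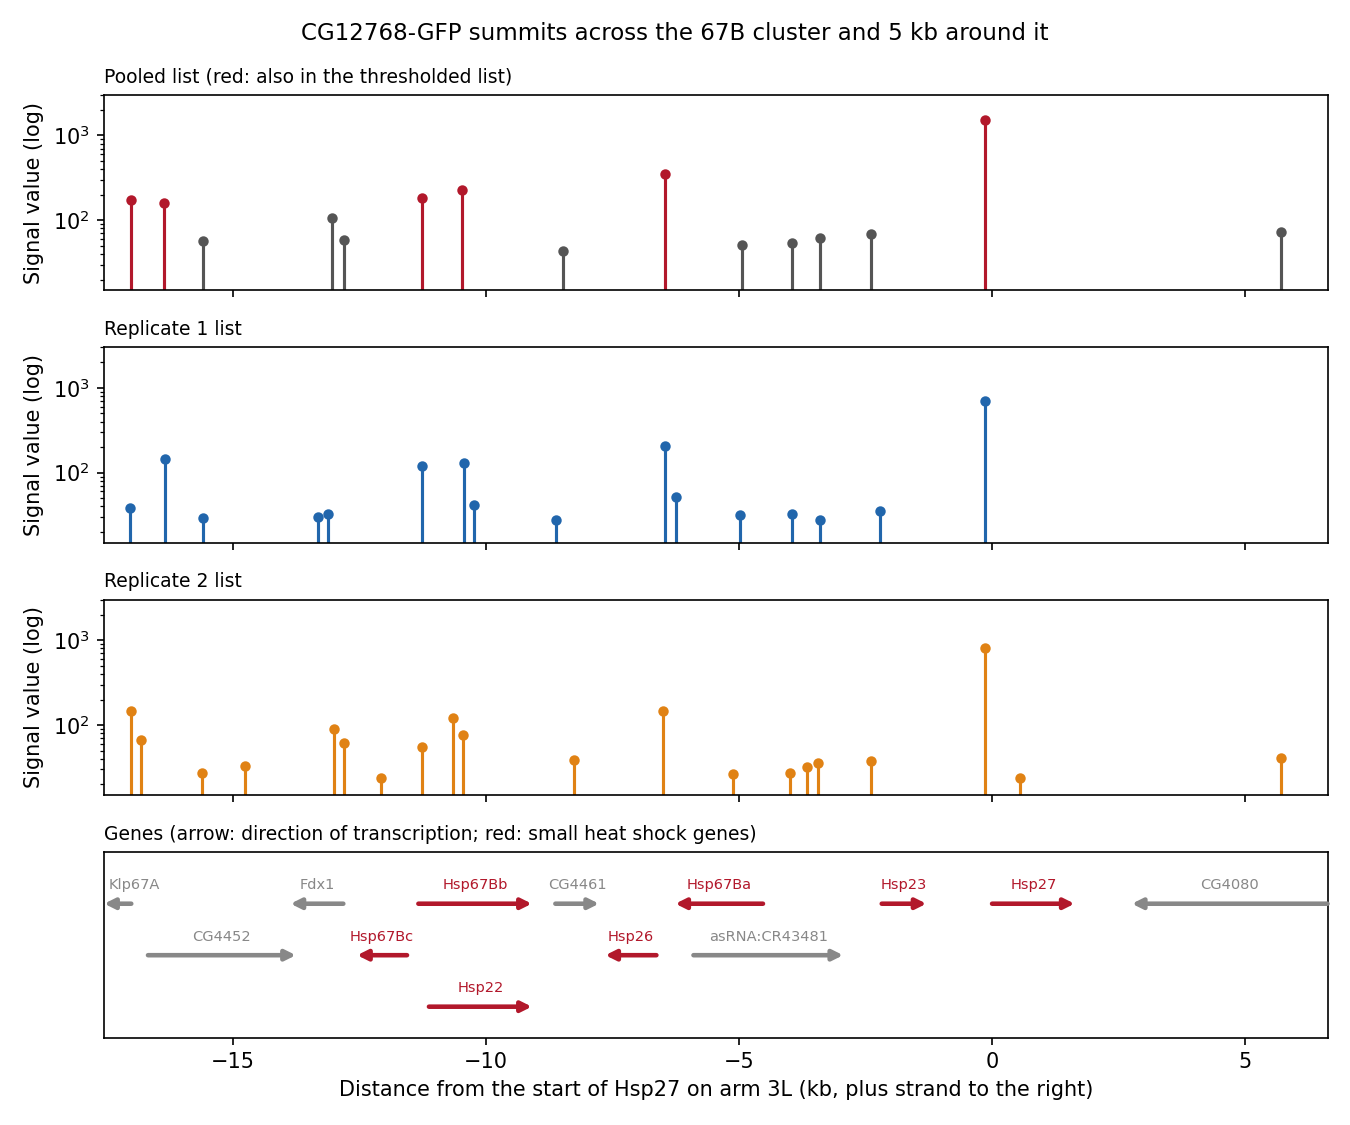
Signal value of every summit (log axis) in the pooled list and in each replicate list, against distance from the Hsp27 start in kb, with the genes drawn below. The Hsp27 summit stands highest in all 3 lists, at 1506 in the pooled list, 692 in replicate 1 and 813 in replicate 2, and the stretch over Hsp67Ba and Hsp23 holds no thresholded summit (red).

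Hsp27 held the strongest summit of the window in every list. Its signal was 692 in replicate 1 and 813 in replicate 2, where it ranked 60 and 67 of 30000, and 1506 in the thresholded and pooled lists, where it ranked 61. Both replicates therefore put it among their 100 strongest peaks, which 66 thresholded peaks did over the whole genome. The summit lay at 9383923, -140 bp from the start, at -133 bp in replicate 1 and -141 bp in replicate 2, between the TATA box and the upper end of the stretch printed for this gene. The thresholded peak covered chr3L:9383755-9384126, 372 bp, and was intergenic at its summit. Only 0.989% of thresholded peaks were stronger, and among the 3613 genes with a thresholded summit Hsp27 stood at place 55. The 2 ranks differed by a factor of 1.12, while the median factor over all thresholded peaks found in both replicates was 2.18 and 7.42% of those peaks had a smaller one.

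Hsp26 came next. Its summit at 9377590 had a signal of 349 and rank 1402 in the thresholded list, 205 and rank 1148 in replicate 1, and 147 and rank 1945 in replicate 2. It lay at -163 bp from the outer start and -215 bp from the inner one, at -178 bp from the outer start in replicate 1 and -123 bp in replicate 2. The replicate summits were thus 15 bp and 40 bp from the thresholded one, on opposite sides of it, which is a wider scatter than the 7 bp and 1 bp at Hsp27. The thresholded peak was 137 bp wide (chr3L:9377486-9377622), where 70.8% of the list has the usual width of 444 bp and 210 of 6066 peaks are this narrow or narrower. In replicate 1 the same place gave a second, weaker summit 200 bp farther upstream, with a signal of 52.3, in the 3′ UTR of Hsp67Ba.

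At Hsp22 the summit lay well upstream of the gene's own start, in sequence annotated as 5′ UTR of a longer Hsp22 transcript and 3′ UTR of Hsp67Bb. It stood at 9373578, -419 bp from that start, with a signal of 226 and rank 2964 in the thresholded list. The matching summits were at -374 bp in replicate 1, with a signal of 130 and rank 2868, and at -391 bp in replicate 2, with a signal of 75.6 and rank 5163. In replicate 2 a stronger summit lay 207 bp to the left, at 9373399 in the coding exon of Hsp67Bb, with a signal of 121 and rank 2599. Replicate 1 had no summit there, and instead had a weaker one 202 bp to the right of its own, with a signal of 42.0. Both replicates thus had 1 summit near the thresholded one, while the second summit lay on opposite sides of it. Whether these are parts of the same region was not tested.

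The divergent starts of Hsp67Bc and Hsp67Bb share 1 summit, at 9372792, in the 5′ UTR of Hsp67Bb. It lay at +70 bp from the Hsp67Bb start, -139 bp from the start shared with Hsp22 and -295 bp from the Hsp67Bc start. Its signal was 185 in the thresholded list (rank 4058), 118 in replicate 1 (rank 3319) and 55.3 in replicate 2 (rank 8039), with summits 2 bp apart between the replicates. The position was thus the same in both, while its rank in replicate 2 lies outside that replicate's 6066 strongest peaks. Counting in that replicate only, Hsp67Bc no longer carried a summit, Hsp67Bb did so only through the one at 9373399, and Hsp22 did so through that one and its matched summit of rank 5163.

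Hsp23 and Hsp67Ba appeared only in the longer lists, which reach down to signals of 41.1 in the pooled list. Hsp23 had a pooled summit at -206 bp with a signal of 69.5 and rank 15043. The nearest summit was at -205 bp in replicate 2, with a signal of 37.9 and rank 13941, and at -40 bp in replicate 1, with a signal of 35.0 and rank 17695. These ranks lie near the middle of each list, and the replicates placed the summit differently. Hsp67Ba had a pooled summit at +418 bp, in its coding sequence, with a signal of 50.8 and rank 22552, and 1 in replicate 1 at +445 bp with a signal of 31.4 and rank 20455. Replicate 2 had none within 500 bp of that start, and its nearest was at -525 bp with a signal of 27.3. By the pooled list, which also holds background, all 7 genes have an entry within 500 bp, beside 55.8% of all protein-coding genes. The deposited −log10 q-values of the pooled entries were 0.997 at Hsp23 and 0.474 at Hsp67Ba, beside 3.98 at Hsp27. In replicate 1 they were 0.679 at Hsp23 and 0.525 at Hsp67Ba.

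**Figure D2:**
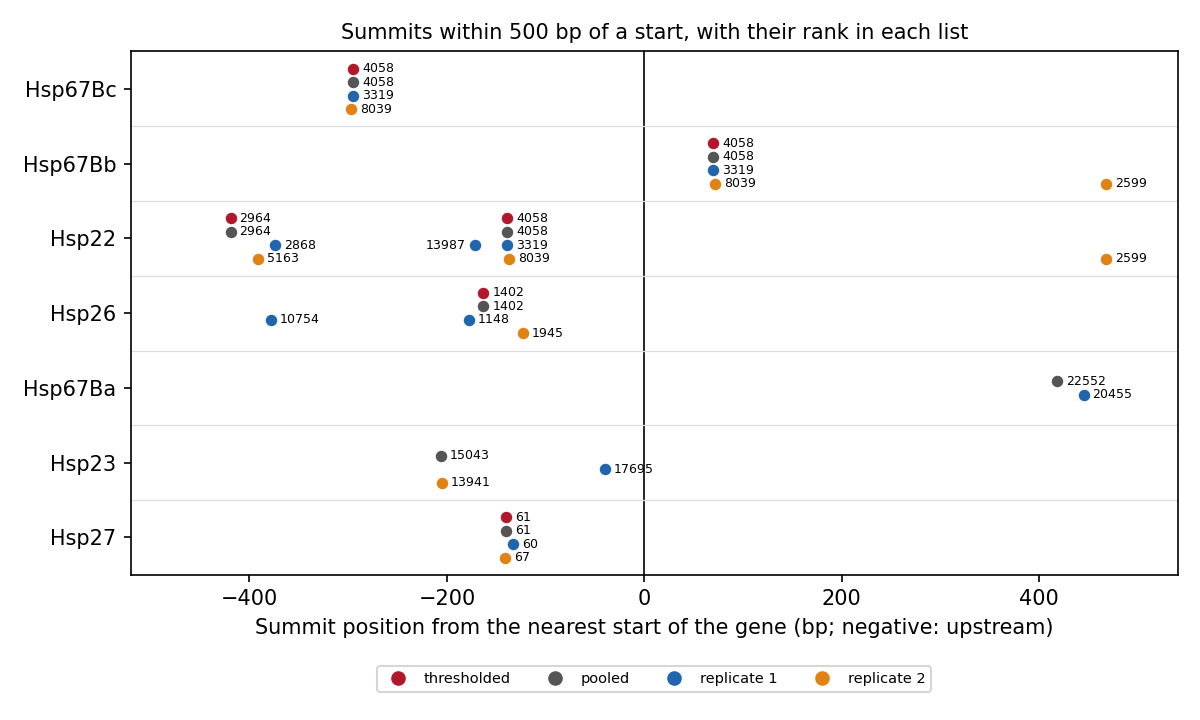
Position of each summit within 500 bp of a start of the 7 genes, in bp from the nearest start, coloured by list, with the summit's rank in its list printed beside it. At Hsp27 the summits of all 4 lists lie between -141 bp and -133 bp, and Hsp67Ba and Hsp23 have no thresholded point.

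The order of the genes by signal was Hsp27, Hsp26, Hsp22, then Hsp67Bc with Hsp67Bb, then Hsp23 and Hsp67Ba in the pooled list, and replicate 1 gave the same order. Hsp27 exceeded Hsp26 by a factor of 4.31 in the thresholded list, 3.38 in replicate 1 and 5.54 in replicate 2, so this step of the order was present in each replicate. It exceeded Hsp22 by a factor of 6.65 in the thresholded list, 5.33 in replicate 1 and 6.73 in replicate 2, where the strongest Hsp22 summit is the one at 9373399; against the summit matched to the thresholded Hsp22 peak the factor in replicate 2 was 10.8. It exceeded Hsp23 by a factor of 21.7 in the pooled list, 19.8 in replicate 1 and 21.5 in replicate 2. The scaling of the signal is not stated, so these factors describe signal values within each list and not amounts of bound CG12768. In replicate 1 Hsp22 and the summit at Hsp67Bb had signals of 130 and 118. Replicate 2 did not keep the order below Hsp26: Hsp22 and Hsp67Bb were tied at 121 through the summit at 9373399, close to 147 at Hsp26, and Hsp67Bc was apart from them at 55.3. Between Hsp23 and Hsp67Ba replicate 1 gave 35.0 and 31.4, and replicate 2 has no value for Hsp67Ba.

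The window held 6 thresholded summits, 4 of them in the cluster, which is 2.48 per 10 kb against 0.453 per 10 kb over all arms. Of 5533 tiles of the same length laid along the arms, 3.78% held 6 or more. The pooled list had 15 summits in the window, replicate 1 had 16 and replicate 2 had 20, each beside 2.24 per 10 kb over all arms. At least as many were held by 8.21% of tiles in the pooled list, 5.15% in replicate 1 and 2.8% in replicate 2. The other 2 thresholded summits belong to neighbours to the left of the cluster. Klp67A, a kinesin of the mitotic spindle, had its summit at -1 bp with a signal of 175 and rank 4411, and the same summit is at -330 bp from the start of CG4452, while CG4452 had another at +325 bp with a signal of 159 and rank 5100. CG4461, the alpha-crystallin gene between Hsp22 and Hsp26, had none, and its pooled summit at +144 bp ranked 27786 with a signal of 43.4.

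Of the 6 thresholded summits of the window, 5 had a summit within 100 bp in both replicate lists, against 86.9% of all thresholded peaks. The 4 in the cluster were all matched. The exception was the one at +325 bp in CG4452, which ranked 2341 in replicate 1 and had no match in replicate 2. The summit at Klp67A was matched but ranked 15713 in replicate 1 and 1902 in replicate 2, a factor of 8.26, and 94.6% of the thresholded peaks found in both replicates had a smaller one. Its entry in replicate 1 had a signal of 38.3 and a deposited −log10 q-value of 0.839, beside 3.997 in replicate 2. A match thus need not be a strong peak in both replicates. Inside the cluster the factors were 1.12 at Hsp27, 1.69 at Hsp26, 1.80 at Hsp22 and 2.42 at Hsp67Bb, beside quartiles of 1.47 and 3.55 over all thresholded peaks. All 4 cluster summits ranked higher in replicate 1 than in replicate 2 when matched by position. Matched instead to the strongest overlapping peak, the Hsp22 summit ranked 2868 in replicate 1 and 2599 in replicate 2, which turns the direction and gives a factor of 1.10.

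**Figure D3:**
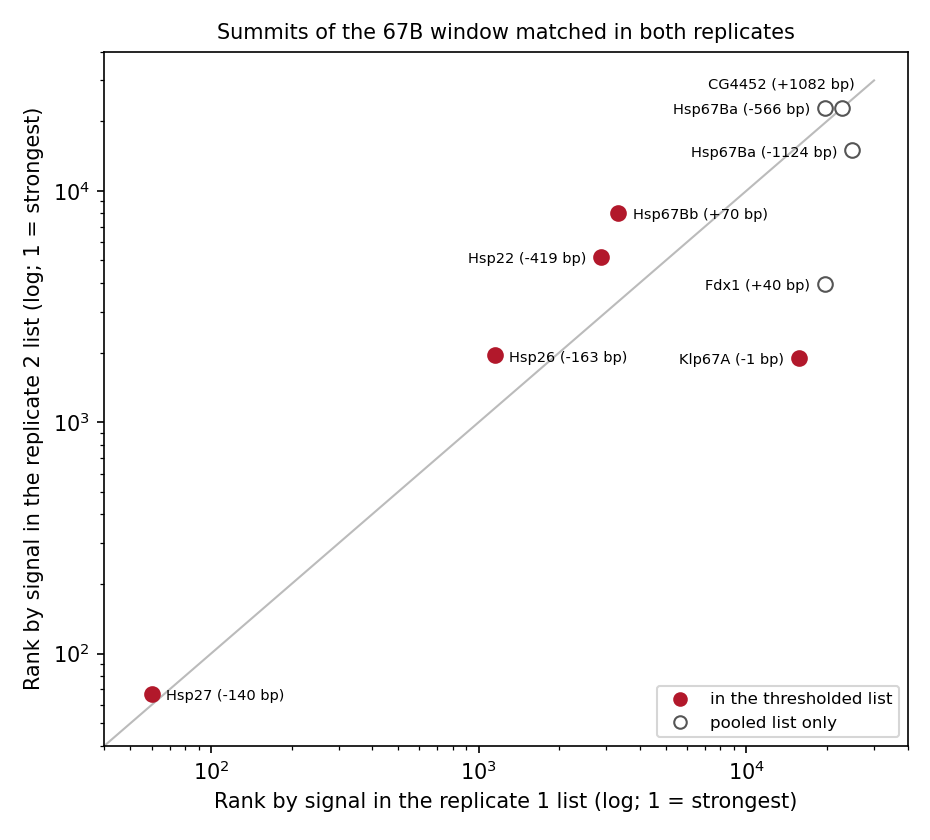
Rank by signal in replicate 1 (x) and replicate 2 (y) of the 9 window summits of the pooled list that were matched in both replicates, on log axes, with the line of equal rank. Hsp27 sits at 60 and 67 near the line, the other 3 cluster summits of the thresholded list (red) lie above it, and Klp67A lies below it.

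The protein-coding genes closest to Hsp27 in rank were mRpL23 and CG9004, which share a summit of rank 62 and signal 1500, then gish, a casein kinase, at rank 63 with 1481, and Arl1 and brm, which share one at rank 64 with 1464. Likeness here is the difference in thresholded rank over 1 list, and says nothing else of these genes. Their summits also lay upstream of the start, at -86 bp for mRpL23, -141 bp for CG9004, -158 bp for gish, -125 bp for Arl1 and -141 bp for brm, where Hsp27 had -140 bp. The replicates were less even at these genes: the summit at mRpL23 ranked 156 in replicate 1 and 39 in replicate 2, that at Arl1 ranked 159 in replicate 1 and 44 in replicate 2, and that at gish ranked 87 in replicate 1 and 57 in replicate 2.

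Of 16 other chaperone and co-chaperone genes, 5 carried a thresholded summit, near the 25.9% of all protein-coding genes given above. With 4 genes of transcription factors that act at small heat shock promoters, the ecdysone receptor pair among them, the count was 9 of 20. Among 6 other alpha-crystallin genes there was 1, CG14207, at +29 bp with a signal of 160 and rank 5030. Among 10 strongly heat-inducible genes there were 4. Hsp83, the fly Hsp90, had a signal of 1640 and rank 46 at -117 bp, and was the only one of the 20 to rank above Hsp27; its summit ranked 8 in replicate 1 and 291 in replicate 2. Hsp68, an Hsp70 family chaperone, had a signal of 225 and rank 2990 at -39 bp, and stv, which encodes the co-chaperone Starvin, had 205 and rank 3466 at -273 bp. DnaJ-1, an Hsp40 co-chaperone, had 278 and rank 2122 at +267 bp, and that summit had no match within 100 bp in either replicate list.

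The 6 copies of Hsp70 carried no thresholded summit. These copies are nearly identical in sequence, so reads may not be assigned to one of them, and the labels do not say how such reads were treated. All 4 transcription factor genes of the list carried at least 1, and Trl carried 2, beside 25.9% of all protein-coding genes. From 500 bp before to 500 bp after each gene, the pooled list held 50 summits at EcR, 13 at Trl, 3 at Hsf and 2 at usp. These counts were not scaled by the length of the gene, and the pooled list also holds background. Over all arms that list had 2.24 summits per 10 kb. Trl, which encodes GAGA factor, had a signal of 487 and rank 726 at +112 bp. EcR, the ecdysone receptor, had 499.97 and rank 697 at -282 bp and was unmatched in replicate 2, and its partner usp had 203 and rank 3514 at -89 bp. Hsf, heat shock factor itself, had 158 and rank 5130 at +416 bp, and ranked 3268 in replicate 1 and 15702 in replicate 2.

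Motifs were searched on both strands in the 300 bp from 250 bp before to 50 bp after the outermost start of each gene. The heat shock element core GAANNTTC was present at 4 of the 7 genes, against 9.37% of 13945 promoters. It began at -119 bp in Hsp67Bc and -113 bp in Hsp67Bb, which is 1 element between the divergent starts, at -128 bp in Hsp26 and at -138 bp in Hsp23. The order TTCNNGAA was not counted, so these are not counts of all heat shock elements. The longer form, with 3 such units in a row, was at none of the 7 and at 0.43% of promoters. GAGAG was at 3 genes, Hsp22, Hsp26 and Hsp23, against 29.7% of promoters, and Hsp26 held 6 copies, some of which overlap. TATAAA was at 6 genes, all but Hsp67Ba, against 45.8% of promoters. Hsp67Bc and Hsp67Bb were counted through the same 2 elements in the gap between them, and the only Hsp22 match is 1 of these. The nuclear receptor half-site AGGTCA and the DRE TATCGATA were at none of the 7, and at 5.88% and 9.36% of promoters.

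Read by start rather than by gene, a choice made after seeing the data, the heat shock core was at 6 of the 9 starts against 9.33% of 19253 starts, with 1 element shared by Hsp67Bc and Hsp67Bb and 1 by both starts of Hsp26. Hsp22's own start held 2, at -188 bp and -87 bp. A TATAAA on the sense strand beginning 20 to 40 bp before the start was found at 6 of the 9, against 6.87% of all starts; that range was also chosen after the positions were seen. It began at -28 bp in Hsp67Bc, Hsp27, Hsp22's own start and the inner start of Hsp26, at -27 bp in Hsp23 and at -40 bp in Hsp67Bb. The matches in these 300 bp and the signal ordered the genes differently. Hsp27, with the strongest peak, held TATAAA as its only match among the 6 motifs in its 300 bp. A GAGAG at -131 bp from the Hsp27 summit, in genome coordinates, lay inside the thresholded peak but just outside those 300 bp. Hsp23, with a heat shock core, GAGAG and TATAAA, had no thresholded summit.

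**Figure D4:**
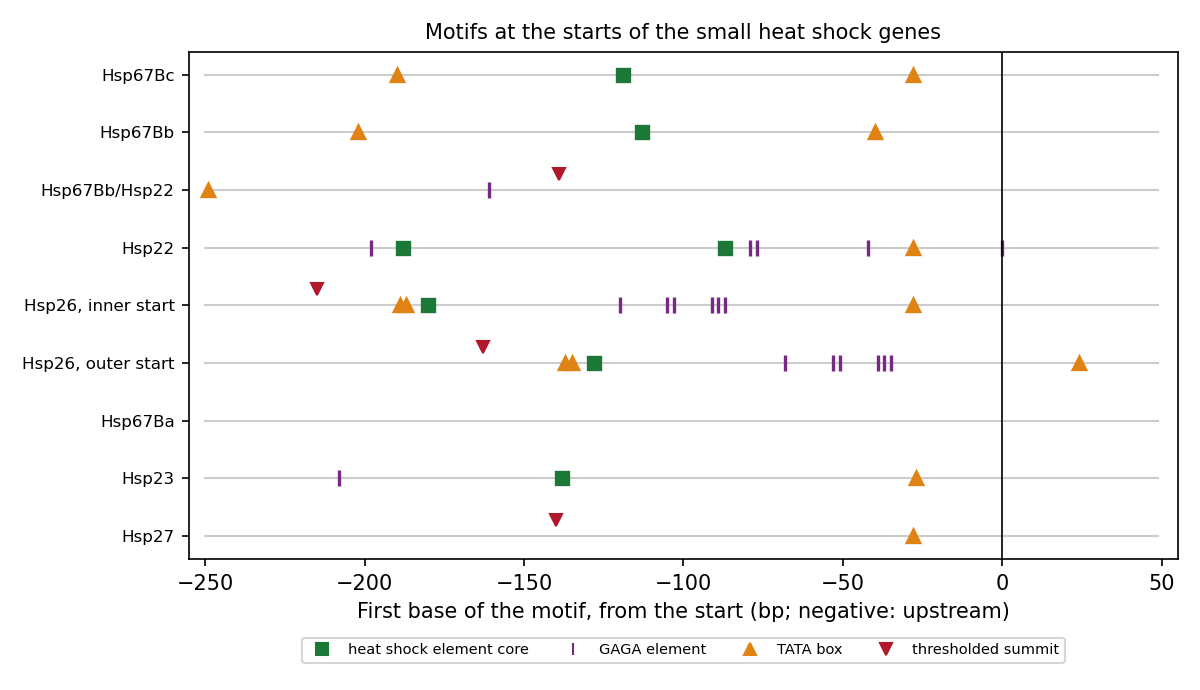
First base of each motif match, in bp from the start, at the 9 starts of the 7 genes, over 250 bp before to 50 bp after each start, with thresholded summits in that range as red triangles. Heat shock element cores (GAANNTTC order only) stand at 6 starts, Hsp67Ba has no match, and the Hsp27 summit at -140 bp has no match of these 3 motifs near it.

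In the 200 bp centred on each summit, the heat shock core was found at 1 of the 4 cluster summits, that of Hsp26, where it began at -42 bp in genome coordinates from the summit, against 4.78% of thresholded summits. GAGAG was at 3 of the 4, Hsp67Bb, Hsp22 and Hsp26, against 30.5%. TATAAA was at 1 of the 4, Hsp26, against 26.5%, and the DRE was at none of the 4 and at 2.74% of all, while the Klp67A summit held one at -1 bp. The GC content of the same 200 bp was 30.0% at Hsp22 and 30.5% at Hsp26, lower than at all but 9.45% and 10.6% of thresholded summits. It was 37.5% at Hsp27 and 38.5% at Hsp67Bb, beside a median of 41.5%. The part of base composition in the peaks was not tested.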

How the data were processed

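Peak lists from 2 replicates of anti-GFP chromatin immunoprecipitation were used as the authors deposited them for dm6, namely the thresholded list, the pooled list and a list for each replicate. Each holds, per the file headers and labels, a signal value from the peak caller, whose scaling is not stated, a deposited −log10 q-value that sits at its highest value for 4776 of 6066 thresholded peaks, and a summit offset. Which aligner and peak caller were run, in which version, and at what reproducibility threshold is not given in the sources used here. The dm3 lists and the control were not analysed here, nor was a mock immunoprecipitation, so the background of the antibody is not measured.

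Summits were placed on the Ensembl release 115 annotation, whose arms and those of the peaks fit within the RefSeq Release 6 lengths, and Hsp67Bb was matched through the RefSeq synonyms of CG4456. Replicate summits were matched within 100 bp. Genes named were the 7 members, neighbours and the 20 other chaperone and transcription factor genes with a thresholded summit within 500 bp of a start, other alpha-crystallin genes of the window and the 5 genes nearest to Hsp27 in rank; Fdx1 and the Hsp70 copies were named after their values were seen. The members, lists and motifs were chosen with earlier results of these data known, so counts stand beside the share of all genes and no test was made. The lists give no read counts, so precision rests on the 2 replicates. Counting was tested on simulated peaks. Alternatives were other promoter distances, windows, matching rules, motif windows, peak sets and each replicate's own 6066 leading peaks. Python 3.11.15 and matplotlib 3.10.9 were used.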

Additional observations from a re-analysis of the deposited data

How the results depend on the processing

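Restricting the thresholded list to its 3033 strongest peaks moved all 3 of the counts it was applied to: 3 of the 7 genes remained, Hsp22, Hsp26 and Hsp27 (15.4% of all genes), with 5 of the 20 other genes (chaperones and transcription factors) and 3 window summits. Those falls follow from the smaller list. With 1 replicate left out, in favour of the other's 6066 strongest peaks, the 7 genes gave 4 to 5, those other genes 7 to 8, the window summits 5 to 6 and the matched summits 5 to 6; Hsp67Bc was lost without replicate 1. The count for the 7 genes was 4 at 250 bp and with summits assigned to the closest start, and Hsp67Bc was the gene lost in both. It was 5 at 1000 bp and 7 with the pooled list, which also holds background. The window held 4 summits without its flanks and 8 with 10 kb flanks. Of 43 alternatives for single genes, ranks and motifs, 34 gave the same value and 9 another: Hsp22 had a signal of 185 at 250 bp, Hsp67Bb 226 at 1000 bp, the Hsp22 summit ranked 2599 in replicate 2 by overlap, and window summits with GAGAG numbered 1 within 50 bp and 5 within 150 bp, with TATAAA 4 and with AGGTCA 1 within 150 bp. Taking the strongest pooled summit could only give the same value, because these thresholded summits have the same signals and ranks in the pooled list. Hsp67Bc had no summit at 250 bp, and that loss is not among the 43. Counting any start of a gene, a choice made after seeing the data, the heat shock core was at 5 of the 7 genes and GAGAG at 4. No paired analysis was possible because there is 1 group. Depth is unknown, so an unlisted summit may be a weak one.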

Other observations

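Close pairs of summits were common in the replicate lists of the window. No 2 summits in any list lie closer than 199 bp, and gaps of 210 bp or less made up 6.17% of neighbouring summits in the thresholded list, 8.64% in the pooled list, 8.55% in replicate 1 and 6.97% in replicate 2. The window held 3 such pairs in replicate 1, among them those at Hsp22 (202 bp) and Hsp26 (200 bp), and 4 in replicate 2, among them that at Hsp22 (207 bp), while the thresholded and pooled lists held 0 there. Whether 1 broad region was divided at such pairs was not tested. Among genes at the edge of the window, Fdx1, a ferredoxin between CG4452 and Hsp67Bc, had a pooled summit at +40 bp with a signal of 106 and rank 8877, which ranked 19596 in replicate 1 and 3963 in replicate 2.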
